A study of Mus musculus with 12 samples.

Results

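The genes described here are 7 direct antiviral effectors of the mouse: Mx1, Mx2, Bst2, Ifitm1, Ifitm2, Ifitm3 and Eif2ak2. They were chosen by name for what their proteins do, out of 54532 genes listed in each count table, and all 7 were found there. The study sequenced polyA-selected RNA of L929 cells, an established mouse fibroblast line, 6 hours after exposure to several stimulators. It has 12 libraries, 2 under each of 6 labels. The mock libraries received no treatment, those labelled HT-DNA, hpRNA, G3-YSD or HSV were transfected with the named agent, and those labelled cGAMP are described as stimulated with it. The labelled cell line, the 6 hour time and the medium with serum and antibiotics are common to all 12 libraries, and mock is the only group without an agent. The source name gives L929 under cGAMP, G3-YSD and HSV, and only a mouse fibroblast line, with no name, under the other labels. cGAMP is the second messenger that the DNA sensor cGAS makes, and the other names follow the labels. The labels speak of duplicates but not of separate cultures, so p-values measure only the spread between these libraries, part of which may be technical. The digit after HSV was read as a replicate number. It could also name a virus type, in which case HSV would be 2 groups of 1 library.

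Most proteins of this kind hinder a step of viral infection directly rather than relay a signal. Type I interferon binds the receptor chains Ifnar1 and Ifnar2, the kinases Jak1 and Tyk2 phosphorylate Stat2 among other proteins, and a complex that contains Stat2 and Irf9 binds the interferon-stimulated response element in the promoters of its target genes. Mx1 and Mx2 are dynamin-like GTPases that trap viral nucleoproteins, and in many laboratory mouse strains both genes carry inactivating mutations. Bst2 encodes tetherin, which ties budding virions to the cell surface. Ifitm1, Ifitm2 and Ifitm3 encode small membrane proteins of the CD225 family that hinder fusion of virus and cell membranes, Ifitm3 mainly in endosomes. Eif2ak2 encodes PKR, a kinase that binds double-stranded RNA and stops translation by phosphorylating the initiation factor eIF2. Fibroblasts are a classic cell type for studying this response.

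Short runs from the promoters are shown first because Ifitm2 and Ifitm3, whose levels behaved differently, both carry letters of the interferon-stimulated response element there. RefSeq promoter windows of build GRCm38.p6, 250 bases before to 50 after a gene's start, were matched for 5 of the 7 genes, all except Mx1 and Mx2. The motif searched was GAAANNGAAA on both strands, with overlapping matches allowed. It occurred in 1131 of 32851 such windows of 300 bases, or 3.44%. Counted by gene, 3.99% of 27025 genes had a window with a match, as did 4 of the 5 matched genes. Each run below is 30 bases long, reads 5′ to 3′ on the gene's own strand, and has the matches in capitals.
Ifitm2, chr7:140955988-140956017, minus strand: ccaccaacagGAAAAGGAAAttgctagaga
Ifitm3, chr7:141010714-141010743, minus strand: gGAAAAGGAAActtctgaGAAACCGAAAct
Bst2, chr8:71537580-71537609, minus strand: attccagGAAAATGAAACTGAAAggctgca
Eif2ak2, chr17:78882535-78882564, minus strand: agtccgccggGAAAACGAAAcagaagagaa
Ifitm3 and Bst2 had 2 matches each, which in Bst2 overlap, and Ifitm2 and Eif2ak2 had 1 each. The matches of Ifitm2 and Bst2 lay before the RefSeq start, at 46 and 130 bases for their first base (-46 and -130), while those of Ifitm3 and Eif2ak2 lay after it, from base 2 and base 18. Ifitm2 and Ifitm3 share the letters GAAAAGGAAA. The window of Ifitm1 held no match, which says only that these letters were not in it. A match is a description of the sequence and not a bound site.

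Before the values, 1 feature of the series touches every comparison. Each of the 12 libraries was closest over all genes to a library of another label with the same number, at noise ratios of 1.41 to 2.03, where 1 is counting noise alone. Libraries of the same label stood at ratios of 3.52 to 82.6. Whether every library carries its right label cannot be told from the files, so each value under a label is that of the library so labelled. Total counts ranged from 12650790 to 18912400 per library, and between 21635 and 26496 genes were detected. Of 9 fibroblast markers, 8 passed the filter on low counts and none was called by edgeR, while DESeq2 called Fn1 with G3-YSD and with HSV (edgeR log2 values 0.68 and 0.60, adjusted p 0.0502 and 0.0735). The 9 had a summed level of 2610 to 4214 counts scaled to the TMM-adjusted library total (CPM), while Thy1 stayed at 1 to 8 counts per library. The summed level of 9 leukocyte markers, 61.1 to 93.7 CPM, was almost all Cd68, and Cd3e and Ncr1 had at most 3 counts in any library. Ptprc had 6 to 20 counts per library and Csf1r 5 to 30. Of the 4 leukocyte markers tested, none was called by edgeR or DESeq2. In edgeR's test 1 of them had an unadjusted p under 0.05 with cGAMP and 1 with HSV. Of all 16840 genes tested, 99 reached that p with cGAMP, 4072 with G3-YSD and 4092 with HSV. The 4 endothelial markers summed to 0.549 to 1.11 CPM in 8 libraries and to 6.00 to 11.8 CPM in the 4 libraries labelled G3-YSD or HSV, and the 4 epithelial markers to 0.244 to 0.682 and 1.47 to 4.54 CPM. None of those tested was called by edgeR or DESeq2, with 2 endothelial genes at an unadjusted p under 0.05 in G3-YSD and in HSV and 1 epithelial gene in HSV. Their part in the results was not tested. In such bulk samples, fewer cells that express a gene and less RNA per cell cannot be told apart.

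Levels per kilobase of exon set the genes in a wide order. The median over the 12 libraries of the level in CPM per kilobase was 493 for Ifitm3, 202.5 for Bst2, 123 for Ifitm2, 33.8 for Eif2ak2, 14.4 for Mx2, 5.48 for Mx1 and 0.350 for Ifitm1. The value of Ifitm2, and so its place, could be too low because of an overlap with another gene given below. The plot of levels by label shows that only Ifitm2 and Ifitm1 did not follow the split between the 2 libraries of a label that the other 5 genes shared.

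**Figure D1:**
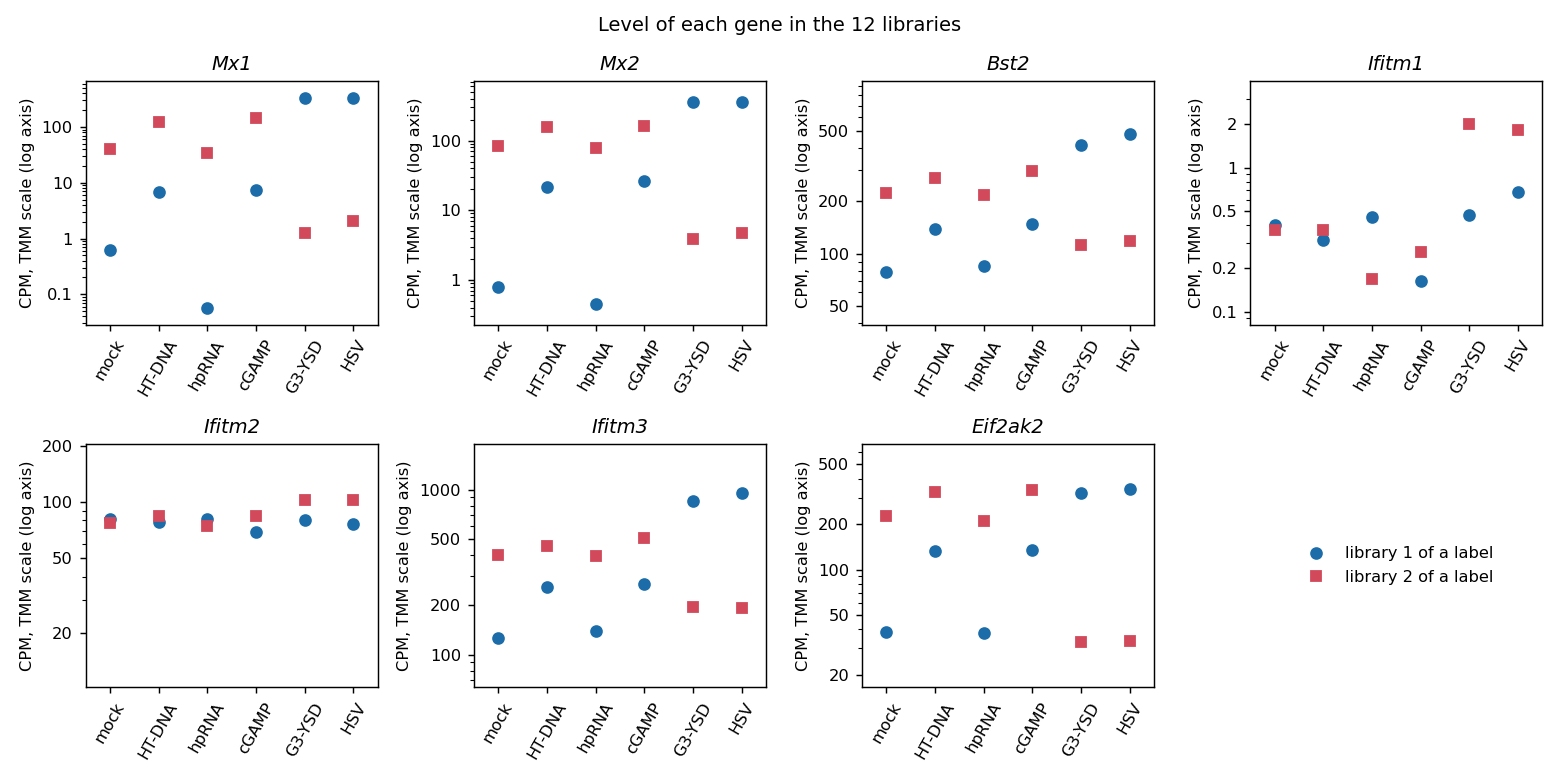
Level of each of the 7 genes in CPM on the TMM scale (y, log axis) in the 2 libraries of each label (x). Each point is 1 library, circles for library 1 and squares for library 2 of a label, and the points of Mx1, Mx2, Bst2, Ifitm3 and Eif2ak2 lie far apart within every label, while those of Ifitm2 stay between 69.3 and 102.5.

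Mx1 (ENSMUSG00000000386), the GTPase that in mice acts in the nucleus against influenza viruses, lies on the minus strand at chr16:97447035-97462907. In CPM it stood at 0.625 and 39.8 in mock 1 and 2, 6.71 and 123 under HT-DNA, 0.0571 and 34.0 under hpRNA, 7.41 and 145.5 under cGAMP, 327 and 1.23 under G3-YSD, and 334 and 2.06 under HSV, with library 1 of each label given before library 2. It was nearly absent in hpRNA 1 and mock 1, with 1 and 11 counts, and highest in G3-YSD 1 and HSV 1, and the labels overlapped because the 2 libraries of each lay far apart. Mock 2 exceeded mock 1 by 63.7-fold, with an exact interval of 35.4 to 128. Such intervals are 95% intervals for a ratio of counts and cover counting error only. G3-YSD 1 exceeded G3-YSD 2 by 266-fold (interval 164 to 465), and HSV 1 exceeded HSV 2 by 162-fold (interval 109 to 250). In HT-DNA and cGAMP, library 2 was the higher, by 18.3-fold and 19.6-fold. As a ratio, the 2 libraries of every label thus lay further apart than the means of any pair of labels.

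Mx2 (ENSMUSG00000023341), its paralogue, whose mouse protein is cytoplasmic where intact, lies 72.4 kb away on the plus strand at chr16:97535308-97560900 and is annotated as a polymorphic pseudogene. In CPM it stood at 0.796 and 83.45 in mock 1 and 2, 21.55 and 154 under HT-DNA, 0.457 and 78.05 under hpRNA, 25.9 and 164 under cGAMP, 357 and 3.92 under G3-YSD, and 354 and 4.79 under HSV. The highest and lowest were the same libraries as for Mx1 apart from a change of place between G3-YSD 1 and HSV 1, which did not differ (1.01-fold, interval 0.974 to 1.05). Mock 2 exceeded mock 1 by 104.9-fold. G3-YSD 2 and HSV 2, low as they were, stood above mock 1, Mx2 by 4.93-fold and 6.02-fold and Mx1 by 1.97-fold (interval 0.858 to 4.69) and 3.30-fold (interval 1.57 to 7.43). Mx1 and Mx2 transcripts have 159 stretches of 50 bases in common, 3.86% of those of Mx1 and 4.38% of those of Mx2, where reads could be assigned to either.

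The ratio of Mx2 to Mx1 was not constant. Per kilobase it was 1.11 in HSV 1, 1.14 in G3-YSD 1, 1.18 in cGAMP 2 and 1.31 in HT-DNA 2, against 2.19 in mock 2, 2.40 in hpRNA 2, 3.36 in HT-DNA 1 and 3.66 in cGAMP 1. Mx1 thus had its smallest shortfall to Mx2 in the 4 libraries where both were highest, and the intervals of cGAMP 1 (3.02 to 4.46) and HSV 1 (1.07 to 1.15) did not overlap. In the libraries with few counts the ratio was 3.34 in G3-YSD 2 (interval 1.87 to 6.27), 2.43 in HSV 2 (1.496 to 4.05) and 1.33 in mock 1 (0.562 to 3.25). hpRNA 1, with 1 count of Mx1, gives no usable ratio.

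The genes around the pair on chromosome 16 were low. Tmprss2, a transmembrane serine protease gene 3.8 kb from Mx2 on the other strand, had 13.3 CPM in G3-YSD 1 and 15.4 in HSV 1, and at most 1.403 in the other 10 libraries. Fam3b, 8.1 kb from Mx1, had 3.43 and 3.86 CPM in the same libraries and at most 0.389 elsewhere, and Bace2, 4.1 kb from Mx1, had at most 0.118. Of all 41 protein-coding genes within 100 kb of the 7 genes, 31 were tested and 10 were too low.

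Bst2 (ENSMUSG00000046718), the tetherin gene, lies on the minus strand at chr8:71534255-71537456. In CPM it stood at 78.7 and 223 in mock 1 and 2, 138 and 269.8 under HT-DNA, 84.9 and 217.5 under hpRNA, 148 and 297 under cGAMP, 416 and 112 under G3-YSD, and 483 and 119 under HSV. No library lacked it, the lowest was mock 1 and the highest HSV 1, 6.15-fold apart, and the labels overlapped. G3-YSD 1 and HSV 1 exceeded mock 2 by 1.86-fold and 2.16-fold (intervals 1.79 to 1.94 and 2.08 to 2.25), while G3-YSD 2 and HSV 2 lay between the 2 mock libraries.

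Ifitm3 (ENSMUSG00000025492), the endosomal restriction factor against influenza and other enveloped viruses, lies on the minus strand at chr7:141009586-141010770. In CPM it stood at 127 and 404 in mock 1 and 2, 257 and 457 under HT-DNA, 139.5 and 398 under hpRNA, 270.5 and 513 under cGAMP, 853 and 194 under G3-YSD, and 950 and 193 under HSV. Mock 1 was again the lowest and HSV 1 the highest, 7.46-fold apart, and no label stood clear of mock. Ifitm3 and Bst2 kept nearly the same proportion in every library. Per kilobase, Ifitm3 was between 2.16 and 2.73 times Bst2, lowest in mock 1 and highest in G3-YSD 1, although both genes varied more than 6-fold.

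Ifitm2 (ENSMUSG00000060591), a close relative of Ifitm3 that lies 53.6 kb away on the same strand at chr7:140954837-140955987, was flat. In CPM it stood at 81.1 and 77.35 in mock 1 and 2, 77.9 and 84.45 under HT-DNA, 81.0 and 74.9 under hpRNA, 69.3 and 84.3 under cGAMP, 80.7 and 102.5 under G3-YSD, and 76.8 and 102.3 under HSV. All 12 libraries lay within 1.48-fold, with G3-YSD 2 and HSV 2 highest, 1.27-fold and 1.26-fold above mock 1 (intervals 1.17 to 1.36 for each). In G3-YSD 1 and HSV 1, where Ifitm3, Bst2 and both Mx genes were highest, Ifitm2 stood at 80.7 and 76.8, beside 81.1 and 77.35 in mock.

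Within each library the ratio of Ifitm3 to Ifitm2 does not depend on the scaling of libraries. Per kilobase it was 1.52 in mock 1 and 5.04 in mock 2, 3.19 and 5.23 in HT-DNA 1 and 2, 1.67 and 5.13 in hpRNA 1 and 2, and 3.77 and 5.87 in cGAMP 1 and 2. It was 10.2 in G3-YSD 1, 1.83 in G3-YSD 2, 11.9 in HSV 1 and 1.82 in HSV 2. In mock 1 Ifitm3 was little above Ifitm2, in HSV 1 it was far above it, and their intervals (1.42 to 1.62 and 11.3 to 12.7) did not overlap. The ratio shows that the 2 genes differed unequally between libraries, not that Ifitm2 was constant. Their transcripts have 20 stretches of 50 bases in common, 3.30% of those of Ifitm2. Ifitm2 also shares 268 exon bases (40.9% of its length) with Gm45717 on the same strand, which had 0 counts in all libraries. How reads over 2 genes were counted is not given in the sources used here. If they were left out, levels per kilobase of Ifitm2 are too low and ratios of Ifitm3 to it too high.

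**Figure D2:**
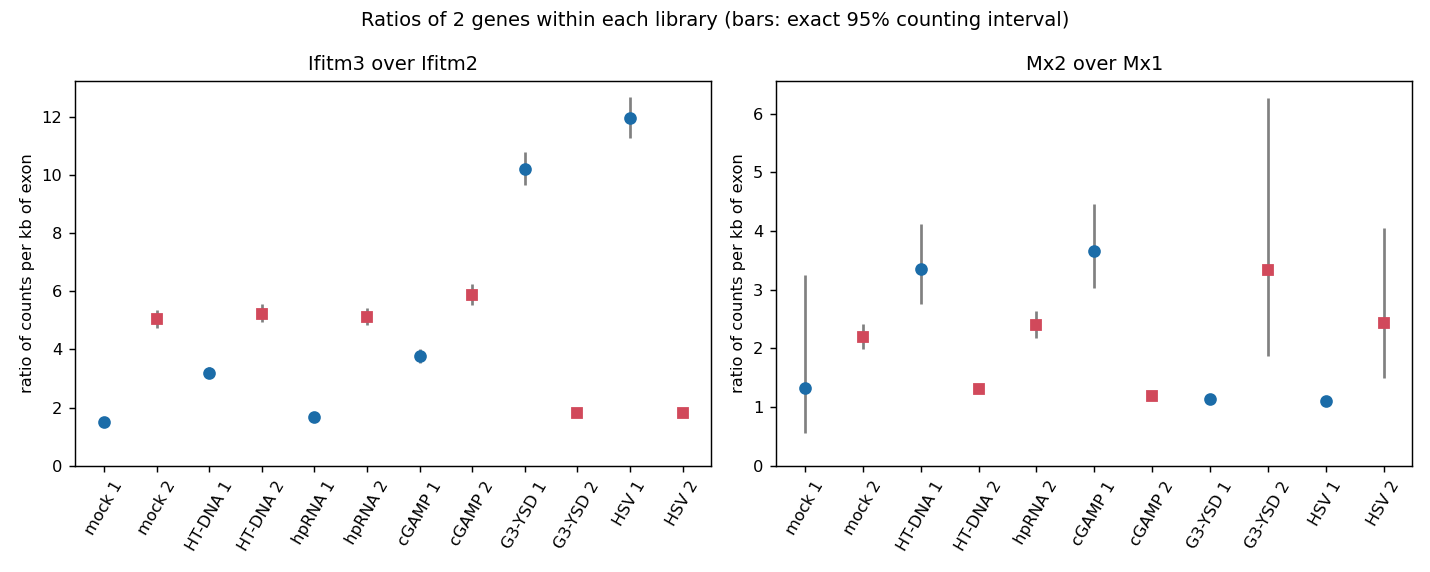
Ratio of counts per kilobase of exon within each library for Ifitm3 over Ifitm2 (left) and Mx2 over Mx1 (right), with exact 95% counting intervals as bars, circles for library 1 and squares for library 2 of a label. Ifitm3 over Ifitm2 reaches 10.2 and 11.9 in G3-YSD 1 and HSV 1, where Mx2 over Mx1 is lowest, and hpRNA 1 is left out on the right because it has 1 count of Mx1.

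Ifitm1 (ENSMUSG00000025491), whose protein sits mainly at the cell surface, lies between its relatives on the plus strand at chr7:140967221-140969825 and was near the limit of detection. It had 7 and 6 counts in mock 1 and 2, 6 and 6 in HT-DNA, 8 and 3 in hpRNA, 3 and 4 under cGAMP, 8 and 26 under G3-YSD, and 11 and 22 under HSV. The level was highest in G3-YSD 2 and HSV 2, at 2.00 and 1.82 CPM, followed by HSV 1 at 0.674 and G3-YSD 1 at 0.472, and mock stood at 0.398 and 0.366. The libraries with most Ifitm1 were thus among those with least Mx1, Mx2 and Eif2ak2. Both G3-YSD libraries and both HSV libraries lay above both mock libraries, and both cGAMP libraries lay below them. G3-YSD 2 exceeded mock 1 by 5.02-fold (interval 2.12 to 13.7), whereas the interval of HSV 1 over mock 1, 0.600 to 5.16, includes no difference. So does that of mock 1 over cGAMP 1, 0.560 to 14.7. The summed endothelial and epithelial markers given above also had their higher values in the G3-YSD and HSV libraries. The endothelial sum was 11.8 and 9.69 CPM in G3-YSD 1 and HSV 1 and 6.00 and 6.03 in G3-YSD 2 and HSV 2. Kdr, at 10.5 and 8.15 CPM, made up most of it in G3-YSD 1 and HSV 1. Pecam1 and Tek, at 2.23 to 3.47 CPM, made up most of it in G3-YSD 2 and HSV 2. The epithelial sum was 1.48 and 1.47 CPM in G3-YSD 1 and HSV 1 and 2.23 and 4.54 in G3-YSD 2 and HSV 2. The part of these markers in the level of Ifitm1 was not tested.

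Eif2ak2 (ENSMUSG00000024079), the PKR gene, lies on the minus strand at chr17:78852564-78882573. In CPM it stood at 38.7 and 226 in mock 1 and 2, 134 and 326 under HT-DNA, 38.1 and 211 under hpRNA, 134.6 and 338 under cGAMP, 320.4 and 33.0 under G3-YSD, and 343 and 33.6 under HSV. The labels overlapped, and HSV 1 was 10.4-fold above G3-YSD 2, the lowest library. Its pattern differed from that of the Mx genes at both ends. At the top, HT-DNA 2, cGAMP 2 and G3-YSD 1 reached 95.2%, 98.5% and 93.5% of the HSV 1 level, whereas Mx1 in HT-DNA 2 and cGAMP 2 was at 36.9% and 43.6% of its own. HSV 1 exceeded cGAMP 2 by 1.02-fold for Eif2ak2 (interval 0.977 to 1.05) and by 2.29-fold for Mx1 (interval 2.18 to 2.41).

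At the bottom, Eif2ak2 was lower in G3-YSD 2 and HSV 2 than in mock 1, which exceeded them by 1.17-fold (interval 1.04 to 1.33) and 1.15-fold (interval 1.02 to 1.31). Bst2 and Ifitm3 had the other order, with HSV 2 exceeding mock 1 by 1.51-fold for each gene (intervals 1.402 to 1.63 and 1.43 to 1.61). Set against Bst2 per kilobase, Eif2ak2 was 0.0869 in mock 1 and 0.179 in mock 2, 0.214 in HT-DNA 2, 0.136 in G3-YSD 1, 0.0519 in G3-YSD 2 and 0.04995 in HSV 2. Eif2ak2 shares 174 exon bases (3.40%) with Gm26637 on the other strand, which had 11 to 107 counts per library. Since the strand setting of the counting is not given in the sources used here, reads in that stretch could belong to either gene.

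**Figure D3:**
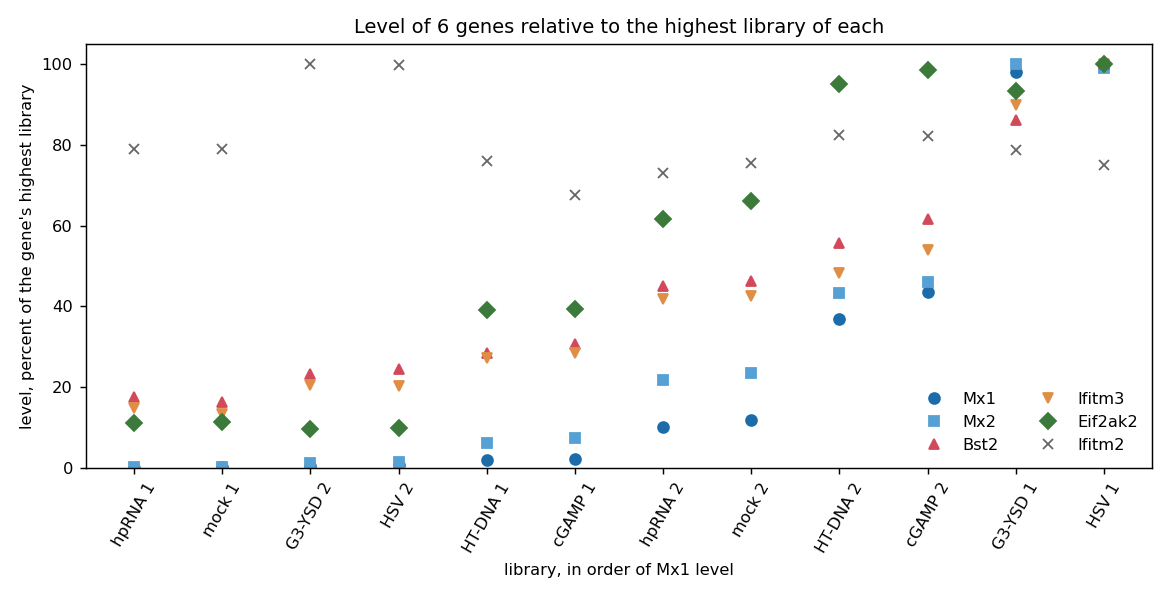
Level of 6 of the genes as a percent of each gene's highest library (y), with the 12 libraries in the order of their Mx1 level (x). Eif2ak2 is already at 95.2% and 98.5% in HT-DNA 2 and cGAMP 2, where Mx1 is at 36.9% and 43.6%, and Ifitm2 does not follow the order of the other genes.

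The comparison of each agent with mock was tested with edgeR's quasi-likelihood test over 16840 genes, with the 12 libraries in 1 fit and a Benjamini-Hochberg adjusted p under 0.05 as the call. All 7 genes passed the filter on low counts, and 0 of 7 were called in each of 7 comparisons, with 0 below an unadjusted p of 0.05 and 0 by DESeq2. For HT-DNA against mock, edgeR called 0% of all genes, 62 had an unadjusted p below 0.05, and DESeq2 called 1 (0.00296%). For hpRNA against mock the same figures were 0%, 58 and 1 (0.00296%), and for cGAMP against mock 0%, 99 and 0 (0%). For G3-YSD against mock edgeR called 5.16% of genes, 869 in all, 4072 had an unadjusted p below 0.05, and DESeq2 called 13.7%. For HSV against mock edgeR called 5.2%, 876 in all, 4092 had an unadjusted p below 0.05, and DESeq2 called 13.3%. The edgeR calls of 869 and 876 genes rest on single libraries. Without mock 1 or without mock 2 both fell to 0, without G3-YSD 2 the first was 77, and without HSV 2 the second was 130. The 5 comparisons share the mock libraries.

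For HT-DNA against mock, the mean level of Mx1 was 64.9 ± 82.3 CPM and that of mock 20.2 ± 27.7 (SD over 2 libraries each), which gave a log2 difference of 1.68 ± 2.99 (standard error) at an edgeR adjusted p of 1. Mx2 had 1.06 ± 2.68, Eif2ak2 0.80 ± 1.42, and Bst2 and Ifitm3 0.43 each. Ifitm2 had 0.04 ± 0.19, with an interval from -0.40 to 0.47 that is far narrower than those of its relatives. The median over the 7 genes was 0.43 against 0 over all genes. None of the 7 had libraries clear of mock, against 27.8% of all genes. These differences were smaller than the spread between libraries of a label, the spread this test uses. Libraries of the same number differed in 1 direction for 5 of the genes. HT-DNA 1 exceeded mock 1 and HT-DNA 2 exceeded mock 2 by 10.7-fold and 3.09-fold for Mx1, 27.1-fold and 1.85-fold for Mx2, 3.46-fold and 1.44-fold for Eif2ak2, 1.75-fold and 1.21-fold for Bst2, and 2.02-fold and 1.13-fold for Ifitm3. The labels do not say that the numbers pair libraries.

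cGAMP against mock gave similar values, with 1.92 ± 3.01 for Mx1, 1.17 ± 2.69 for Mx2, 0.83 ± 1.42 for Eif2ak2, 0.56 for both Bst2 and Ifitm3, and -0.04 for Ifitm2 (interval -0.48 to 0.39). The median was 0.56 against 0 over all genes. Ifitm1, at -0.85 ± 0.90, was the only gene of the 7 whose cGAMP libraries did not overlap mock, in a comparison where 30% of all genes did not overlap, 15.1% of all genes on the lower side as it was. HT-DNA and cGAMP did not differ detectably from each other: the values of HT-DNA against cGAMP ran from -0.24 ± 2.90 for Mx1 to 0.68 ± 0.90 for Ifitm1. The interval for Mx1, -6.88 to 6.41, is too wide to show that the 2 agents act alike. In that comparison edgeR called 0% of genes (44 unadjusted) and DESeq2 1 (0.00296%), and Ifitm1 alone did not overlap, higher with HT-DNA, against 25.3% of all genes and 11.8% in its direction.

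hpRNA against mock gave values near 0 for every gene. They ran from -0.29 ± 0.86 for Ifitm1 and -0.24 ± 2.93 for Mx1 to 0.02 ± 0.97 for Ifitm3, with a median of -0.09 against 0 over all genes. The intervals of Mx1, -6.97 to 6.48, and Eif2ak2, -3.33 to 3.15, are again wide, and that of Ifitm2, -0.45 to 0.41, is narrow. None of the 7 genes had libraries clear of mock, against 20.8% of all genes.

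G3-YSD and HSV against mock gave larger values than HT-DNA and cGAMP for Mx1, Mx2, Bst2 and Ifitm3, but smaller ones for Eif2ak2. The differences between these pairs of agents were not tested. For Mx1 the means were 164 ± 230.4 CPM and 20.2 ± 27.7 in mock (SD over 2 libraries each), which gave a log2 difference of 3.02 ± 3.13 at an edgeR adjusted p of 0.569. Mx2 had 2.10 ± 2.76, Ifitm3 0.98 ± 0.98, Bst2 0.81 ± 0.90 and Eif2ak2 0.42 ± 1.42. Ifitm1, at 1.66 ± 0.83, had the lowest adjusted p of the 7, 0.256, and was the only one whose libraries did not overlap mock, against 47% of all genes and 24.4% in its direction. Ifitm2 had 0.21 (interval -0.22 to 0.64). The median was 0.98 against 0.11 over all genes, but in each of the 6 genes other than Ifitm1 one G3-YSD library lay within or below the range of mock.

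HSV against mock had 3.05 ± 3.14 for Mx1, 2.09 ± 2.75 for Mx2, 1.10 ± 0.98 for Ifitm3, 1.00 ± 0.90 for Bst2 and 0.51 ± 1.42 for Eif2ak2. Ifitm1 had 1.67 ± 0.83 at an edgeR adjusted p of 0.252, and again it alone did not overlap mock, against 47.5% of all genes and 24.7% in its direction. Ifitm2 had 0.18 (interval -0.25 to 0.61), and the median was 1.10 against 0.10. G3-YSD and HSV were nearly level with each other, from -0.19 ± 0.89 for Bst2 to 0.03 ± 0.19 for Ifitm2, with 0% of genes called by edgeR (33 unadjusted), 1 by DESeq2 (0.00296%) and 0 of 7 genes without overlap, against 6.99% of all genes. Their intervals for Mx1, -6.66 to 6.59, are too wide to call the agents alike.

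**Figure D4:**
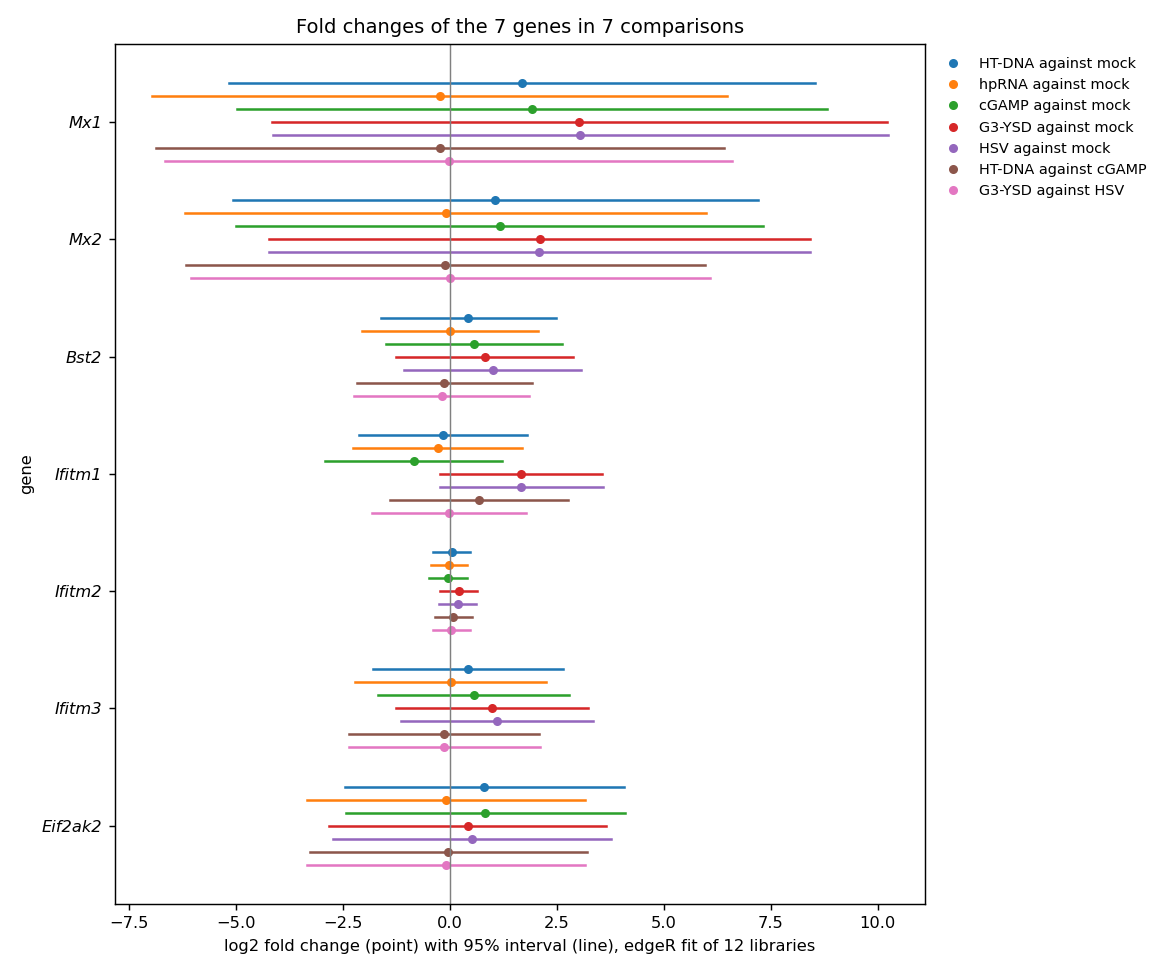
Log2 fold change of each of the 7 genes (y) in 7 comparisons (colours), points for the estimate and lines for the 95% interval of the edgeR fit of 12 libraries (x). All intervals include 0, and those of Ifitm2 are far narrower than those of Mx1 and Mx2.

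The genes of the pathway above the effectors fell into a part that varied with them and a part that did not. Of 15 genes of interferon signalling, all tested, 0 were called with HT-DNA, hpRNA or cGAMP, and Ifna13 alone rose by edgeR's test with G3-YSD and HSV, where 5.16% and 5.2% of all genes were called, by 7.91 ± 1.67 (adjusted p 0.0428) and 8.29 ± 1.66 (adjusted p 0.0365) on the log2 scale. In each of these comparisons 3 of the 15 had an unadjusted p under 0.05 in edgeR's test, against 4072 and 4092 of all 16840 genes. DESeq2 called 3, Ifna13, Ifnar1 and Tyk2, against 13.7% and 13.3% of all genes. edgeR put Ifnar1 lower at -0.53 with G3-YSD and -0.61 with HSV, and Tyk2 at -0.65 with each. Ifna13 had at most 3 counts in the other 8 libraries and 51, 8, 58 and 14 in G3-YSD 1, G3-YSD 2, HSV 1 and HSV 2, and reads of this near-identical interferon alpha family may be split between its members. Ifnb1, the interferon beta gene, had 0 and 30 counts in mock 1 and 2, 450 and 56 in G3-YSD 1 and 2, and 390 and 50 in HSV 1 and 2. G3-YSD 2 and HSV 2 thus held more Ifnb1 than mock 2 (4.31 and 4.13 against 1.83 CPM) but far less Mx1.

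Stat2, Irf9 and Irf7 had the split of the effectors. Stat2 ran from 23.2 CPM in hpRNA 1 to 549.9 in HSV 1, Irf9 from 12.2 in hpRNA 1 to 180.5 in G3-YSD 1, and Irf7, the factor that amplifies interferon production, from 2.31 in HSV 2 to 247.5 in HSV 1. None was called, the edgeR adjusted p of Stat2 being 0.713 with G3-YSD. The receptor chain Ifnar1 (45.1 to 77.1 CPM), the kinases Jak1 (206 to 347) and Tyk2 (20.1 to 41.5), and Irf3, the factor first activated by cytosolic sensors (27.1 to 48.6), had narrower ranges. Of 26 other antiviral effectors, such as Rsad2, Isg15 and the Ifit and Oas genes, 0 were called, with medians of 0.58 with HT-DNA, -0.12 with hpRNA, 0.65 with cGAMP, 1.94 with G3-YSD and 1.90 with HSV. Their summed level was 698 CPM in mock 1, 4790.0 in mock 2, 17680.0 in G3-YSD 1 and 785 in G3-YSD 2, the order of Bst2 in these 4 libraries. In edgeR's test the count at an unadjusted p under 0.05 was again 0 in the comparisons with mock. Over all 16840 genes it was 4072 with G3-YSD and 4092 with HSV. DESeq2 called 1 of the 26, Cmpk2, with each, where it called 13.7% and 13.3% of all genes.

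Among 17 genes of eIF2 kinases and PKR partners 0 were called in any comparison by edgeR, with medians between -0.13 and 0.03. With G3-YSD and with HSV 5 of the 17 had an unadjusted p under 0.05 in edgeR's test, against 4072 and 4092 of all 16840 genes. DESeq2 called Ddit3 in both and Eif2ak3 with HSV, against 13.7% and 13.3% of all genes. The other eIF2 kinases stayed within narrow ranges, Eif2ak1 at 55.3 to 75.2 CPM, Eif2ak3 at 38.5 to 63.6 and Eif2ak4 at 30.2 to 60.7, where Eif2ak2 spanned 33.0 to 343. Eif2s1, the subunit they phosphorylate, was at 183 to 228 CPM. Atf4, a factor translated when eIF2 is phosphorylated, was at 135.5 and 118 CPM in G3-YSD 2 and HSV 2 and at 612 to 715 in the other 10 libraries. Ppp1r15a, which guides a phosphatase back to eIF2, was at 252 and 237 CPM in G3-YSD 1 and HSV 1 and at 61.3 to 114 elsewhere. Prkra, an activator of PKR, was at 5.58 to 14.4 CPM.

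Of 10 dynamin superfamily genes outside Mx, 2 rose by edgeR's test with G3-YSD and with HSV, where 5.16% and 5.2% of all genes were called, and 0 in other comparisons with mock. In each of G3-YSD and HSV 4 of the 10 had an unadjusted p under 0.05 in edgeR's test, against 4072 and 4092 of all 16840 genes. DESeq2 called 4 of the 10, against 13.7% and 13.3% of all genes. They were the 2 called by edgeR and Atl2 and Mfn1, which edgeR put lower at -0.32 and -0.49 with G3-YSD. Dnm3, a dynamin, rose by 3.31 ± 0.70 and 3.33 ± 0.70 on the log2 scale (edgeR adjusted p 0.0365 and 0.0354), from at most 0.595 CPM in the other 8 libraries to 1.24 and 2.999 under G3-YSD and 1.47 and 2.81 under HSV. Atl1, an atlastin that shapes the endoplasmic reticulum, rose by 1.80 ± 0.26 and 1.54 ± 0.26 (edgeR adjusted p 0.0143 and 0.0191). The general dynamins Dnm2 (95.5 to 144 CPM) and Dnm1l (63.9 to 89.0) were not called.

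Of 10 other genes of the CD225 family 6 were tested and 0 called by edgeR or DESeq2. In edgeR's test 1 had an unadjusted p under 0.05 in each of G3-YSD and HSV, against 4072 and 4092 of all 16840 genes. Ifitm5 had 2 to 14 counts per library, Ifitm10 0 to 13 and Ifitm7 0 in all. Ifitm6 had 33 and 29 counts in G3-YSD 1 and HSV 1 and 2 to 8 in the other 10 libraries, so its highest libraries were those of Ifitm3 and not those of Ifitm1. Of 7 genes whose proteins act with Ifitm3, Zdhhc20, an enzyme that palmitoylates it, fell with HSV by 0.70 on the log2 scale (edgeR adjusted p 0.0471) and had -0.67 with G3-YSD (adjusted p 0.0542), with 35.1 and 37.4 CPM against 65.8 and 51.9 in mock. In each of these comparisons 2 of the 7 had an unadjusted p under 0.05 in edgeR's test. Over all 16840 genes the count was 4072 with G3-YSD and 4092 with HSV. DESeq2 called 2 of the 7, Zdhhc20 and Setd7, a methyltransferase, against 13.7% of all genes with G3-YSD and 13.3% with HSV. Zmpste24, a cofactor in restriction, stayed at 102 to 113 CPM, and Nedd4, a ubiquitin ligase that marks Ifitm3 for turnover, was at 540.0 and 529 CPM in G3-YSD 1 and HSV 1 and at 924 to 1319 elsewhere. Of the 31 tested neighbours within 100 kb, 2 fell with G3-YSD, Slc27a1 by 0.79 and Ano8 by 1.16, and 2 with HSV, Slc27a1 by 0.84 and Ric8a by 0.82, by edgeR's test. These shares are near the 5.16% and 5.2% of all genes called. In each comparison 9 of the 31 neighbours had an unadjusted p under 0.05 in edgeR's test, against 4072 and 4092 of all 16840 genes. DESeq2 called 6, Ano8, Cebpz, Dda1, Gtpbp3, Ric8a and Slc27a1, against 13.7% and 13.3% of all genes. All calls of this and the preceding lists with G3-YSD and HSV come from comparisons in which no gene was called without mock 1 or without mock 2.

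The genes most like each member over the 12 libraries were taken as the 3 with the highest Pearson correlation of log2 CPM among 9758 genes. For Mx1 they were Rnf213 (0.989), Ifi204 (0.988) and Pnpt1 (0.987), and for Mx2 Ifi207 (0.998), Ifit3 (0.997) and Phf11d (0.995). Bst2 was most like Gbp9 (0.996), Gbp10 (0.992) and Tnfsf10 (0.991), and Ifitm3 was most like Zbp1 (0.994), Gbp9 (0.994) and Znfx1 (0.993), so Gbp9, a guanylate-binding protein gene, stood near both. Eif2ak2 was most like Slfn2 (0.999), Ifi203 (0.998) and Parp10 (0.997). Ifitm2 was most like Lin9 (0.955), Naaa (0.949) and Sdccag8 (0.945), and Ifitm1 most like Ctdspl2 (0.980), Baz2b (0.973) and Ankrd13c (0.970). Ranked by Spearman's rho instead, 1 of the 3 stayed for Bst2 and for Ifitm2 and 0 for the other genes. These correlations are descriptions over 12 libraries that fall into close pairs, and at a few counts per library that of Ifitm1 says little.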

How the data were processed

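Each of the 12 deposited files holds a library's raw counts for Ensembl genes. The submitters' processing notes name HISAT2, HTSeq and mm10 without versions. No source used here gives the annotation release or strand setting. Symbols, positions and exon lengths come from GENCODE release M21, which matched 54495 of 54532 genes.

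From these counts, edgeR 4.0.16 in R 4.3.3 removed low genes with its default filter, which left 16840, scaled libraries by TMM (factors 0.948 to 1.05) and fitted 1 term per label to all 12 libraries (6 residual degrees of freedom, biological coefficient of variation 0.397). The spread is thus 1 estimate per gene over all labels. A gene was called at an adjusted p under 0.05. DESeq2 1.42.0 was an alternative. Levels are CPM on the TMM scale. Ratios of 2 libraries or genes carry exact binomial 95% intervals.

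The 7 genes and the lists were chosen with earlier results of these data known. The rule for named genes takes all 7, the 3 most similar genes of each by log2 CPM (prior count 2) with a mean of at least 5 CPM, a fixed set from the lists, and up to 4 called members of each list per comparison. Tmprss2, Fam3b, Bace2, Ifitm7, Thy1, Cd68, Cd3e and Ncr1, and the genes named as called by DESeq2 alone, list members outside that rule, were named after their values were seen. Ptprc, Csf1r, Kdr, Pecam1 and Tek were also named after their values were seen.

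The fit was tested on simulated data, for the comparison of HT-DNA with mock over 16097 genes. Of the genes given a log2 change of 1, 0 of 69 were called, with 44 of 73 at a change of 2, 55 of 58 at 4 and 4 false calls. Genes as variable as Mx1 were not simulated apart. Each library was drawn independently of the others, so the closeness of same-numbered libraries was not simulated. These rates may therefore not hold for the real libraries. Alternatives were other scalings, no filter on low counts, fits of fewer libraries, a replicate block, each library left out, and DESeq2.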

Additional observations from a re-analysis of the deposited data

Results flagged for a closer look

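Ifitm1 lay on opposite sides of mock with different agents. Both cGAMP libraries, with 3 and 4 counts, were below both mock libraries, while both G3-YSD libraries, with 8 and 26 counts, and both HSV libraries, with 11 and 22 counts, were above them. Mock 1 exceeded cGAMP 1 by 2.45-fold (exact 95% interval 0.560 to 14.7) and mock 2 exceeded cGAMP 2 by 1.41-fold (0.335 to 6.80). G3-YSD 1 exceeded mock 1 by 1.19-fold (0.376 to 3.85). These intervals include no difference, so the counts do not settle the side of mock for cGAMP or for G3-YSD 1. Over the summed counts and library sizes, G3-YSD was 5.50-fold above cGAMP (34 against 7 counts, exact 95% interval 2.40 to 14.7), and HSV was 5.62-fold above it (33 against 7 counts, interval 2.45 to 15.1). Most of these counts came from G3-YSD 2 and HSV 2. G3-YSD 1 alone was 2.91-fold above cGAMP 1 (interval 0.699 to 17.0) and 1.82-fold above cGAMP 2 (0.488 to 8.26), and HSV 1 alone was 4.16-fold (1.10 to 23.2) and 2.60-fold (0.770 to 11.2) above them, so without the library numbered 2 all but 1 of these intervals include no difference. These intervals cover counting error only, and the difference between the agents was not tested. The pattern was picked out from these same values, and its share over all genes is not given here.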

How the results depend on the processing

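Over the alternatives, 0 of the 7 genes were called in each comparison, except that 2, Mx1 and Mx2, were called with G3-YSD and 2 with HSV under a replicate block with crossed numbers in the 4 libraries compared, an alternative chosen after seeing the data that called 984 and 999 genes. Same-numbered libraries deviated together, with correlations of 0.37 to 0.65 for HT-DNA, hpRNA and cGAMP with mock and 0.94 for G3-YSD with HSV, but at -0.36 for G3-YSD and HSV with mock, so the numbers, which the labels do not explain, were not taken as pairs. With the replicate block in all 12 libraries, the genes called were 0 for HT-DNA, hpRNA and cGAMP, 1211 for G3-YSD and 1214 for HSV. With the replicate block and without the G3-YSD and HSV libraries, 8 in all, they were 14 for HT-DNA and 23 for cGAMP, and Mx1 had 1.95 ± 0.44 (edgeR adjusted p 0.331) and 2.15 ± 0.44 (0.190), against standard errors of 2.99 and 3.01 without the block in all 12. With the replicate block in the 4 libraries compared they were 6 with HT-DNA, 182 with hpRNA, 6 with cGAMP, 0 with G3-YSD, 0 with HSV, 21 for HT-DNA against cGAMP and 13 for G3-YSD against HSV. With only the 4 libraries compared and no block they were 0 for G3-YSD and 0 for HSV. With no filter they were 1894, 1892 and, for G3-YSD against HSV, 1, over more genes tested. DESeq2 called 1 for HT-DNA, 1 for hpRNA, 2106 for G3-YSD, 2138 for HSV, 1 for HT-DNA against cGAMP and 1 for G3-YSD against HSV. The cause of these shifts was not tested. Mx2 in G3-YSD against HSV, at 0.01, became -0.01 with only the 4 libraries and -0.02 with the block in them.

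Leaving out 1 library at a time, which leaves a lone library assumed to vary like the others, called 0 of 7 genes in 196 tests, the lowest edgeR adjusted p being 0.0975 (Ifitm1, without G3-YSD 1). The genes called ranged from 0 to 652 for G3-YSD and from 0 to 682 for HSV. Log2 fold changes that turned sign had these ranges. For HT-DNA against mock they were -1.59 to 6.70 (Mx1), -0.97 to 6.79 (Mx2), -0.13 to 1.39 (Bst2), -0.02 to 0.11 (Ifitm2) and -0.17 to 1.5 (Ifitm3). For hpRNA they were -8.29 to 4.76 (Mx1), -6.51 to 5.62 (Mx2), -1.14 to 0.25 (Ifitm1), -0.08 to 0.03 (Ifitm2), -0.93 to 1.08 (Ifitm3) and -1.80 to 1.69 (Eif2ak2). Bst2 with hpRNA, at 0.00 in the main fit and so without a sign to turn, ran from -0.83 to 0.95. For cGAMP they were -1.45 to 6.92 (Mx1), -0.71 to 6.89 (Mx2), -0.03 to 1.51 (Bst2), -0.19 to 0.09 (Ifitm2) and -0.05 to 1.63 (Ifitm3). For G3-YSD they were -4.04 to 8.01 (Mx1), -3.43 to 7.80 (Mx2), -0.44 to 1.74 (Bst2), -0.46 to 2.03 (Ifitm3) and -2.02 to 2.18 (Eif2ak2). For HSV they were -3.30 to 8.06 (Mx1), -3.15 to 7.81 (Mx2), -0.36 to 1.94 (Bst2), -0.06 to 0.36 (Ifitm2), -0.47 to 2.17 (Ifitm3) and -1.99 to 2.29 (Eif2ak2). For HT-DNA against cGAMP they were -3.51 to 3.15 (Mx1), -2.14 to 1.78 (Mx2), -0.69 to 0.47 (Bst2), -0.05 to 0.24 (Ifitm2), -0.61 to 0.41 (Ifitm3) and -0.82 to 0.79 (Eif2ak2). For G3-YSD against HSV they were -7.09 to 6.31 (Mx1), -5.52 to 5.24 (Mx2), -1.43 to 1.16 (Bst2), -1.37 to 0.85 (Ifitm1), -0.16 to 0.26 (Ifitm2), -1.56 to 1.44 (Ifitm3) and -2.52 to 2.40 (Eif2ak2). The sign of Mx1, Mx2, Bst2 and Ifitm3 against mock thus depends on single libraries, as does that of Eif2ak2 with hpRNA, G3-YSD and HSV. With HT-DNA and cGAMP the sign of Eif2ak2 held, at lowest values of 0.01 and 0.02. That of Ifitm1 kept its direction with HT-DNA, cGAMP, G3-YSD and HSV, at counts that limit every statement on it. Of 590 values of the 7 genes under alternatives, 64 turned sign, all but 2 of them when a library was left out. A value that was 0.00 after rounding, in the main fit or the alternative, was not counted as turning.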

Other observations

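Trarg1, a gene of the CD225 family known for its part in fat cell glucose transport, was the most abundant of the family genes outside the 7. It had 1219 and 1216 counts in G3-YSD 1 and HSV 1, 204 and 209 in G3-YSD 2 and HSV 2, and 490 to 746 in the other 8 libraries, and was not called. Its highest and lowest libraries within G3-YSD and HSV were those of Ifitm3, but in the other 8 libraries it did not have the split of Ifitm3. Prrt2, another family gene, had 2 to 6 counts in the G3-YSD and HSV libraries and 13 to 29 in the others, and was not called either. Both were named after their values were seen.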
